A study of Mus musculus with 13 samples.

Results

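The 7 ion channel genes described here are Kcnk13, Kcnk6, Kcnj2, Hvcn1, Trpv2, Trpm2 and Clic1. They were taken by name from a table of 14518 gene entries, and all 7 were found and passed the filter on low values. The RNA came from microglia, the resident macrophages of the brain, sorted from adult C57BL/6 mice of 2 months as CD11b-positive cells with intermediate CD45. The RSD group (n = 7) underwent repeated social defeat (6 cycles), a stress model in which mice are exposed to an aggressor, and was sampled 24 days after it ended. The CON group (n = 6) held control mice of the same strain and age. Setting RSD against CON addresses whether these transcripts differ long after the stress has ended. Bulk RNA of sorted cells cannot tell fewer cells of a type from less RNA per cell.

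Ion channels set the membrane potential of microglia and the ion fluxes behind their motility and cytokine release. Potassium channels hold the resting potential negative, and potassium leaving the cell is a trigger of the NLRP3 inflammasome in macrophages. Proton channels carry away the charge and acid that the phagocyte NADPH oxidase produces. Calcium-permeable TRP (transient receptor potential) channels couple heat, membrane stretch or oxidative stress to calcium entry. Intracellular chloride channel proteins move between a soluble and a membrane form.

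Promoter windows from RefSeq (GRCm38.p6, the assembly also called mm10) were matched for 5 of the 7 genes, with 250 bases before and 50 after the start. The 3 windows below belong to the genes whose values the results turn on most: Trpv2 and Kcnj2 lay on opposite sides of their medians in the library RSD 8, and Kcnk13 had opposite differences in the sample number ranges. Capitals mark GAGGAAGT, a core sequence bound by the myeloid transcription factor PU.1, or its shorter form GAGGAAG. Both were searched on both strands, and every GAGGAAGT also counts as a GAGGAAG.
Trpv2 (chr11:62574236-62574535, plus strand): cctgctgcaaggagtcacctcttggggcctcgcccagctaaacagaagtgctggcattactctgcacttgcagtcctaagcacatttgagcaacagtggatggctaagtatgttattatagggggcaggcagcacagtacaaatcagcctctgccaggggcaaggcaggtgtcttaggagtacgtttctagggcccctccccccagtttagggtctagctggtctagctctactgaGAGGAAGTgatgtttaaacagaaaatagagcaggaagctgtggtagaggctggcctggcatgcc
Kcnj2 (chr11:111065914-111066213, plus strand): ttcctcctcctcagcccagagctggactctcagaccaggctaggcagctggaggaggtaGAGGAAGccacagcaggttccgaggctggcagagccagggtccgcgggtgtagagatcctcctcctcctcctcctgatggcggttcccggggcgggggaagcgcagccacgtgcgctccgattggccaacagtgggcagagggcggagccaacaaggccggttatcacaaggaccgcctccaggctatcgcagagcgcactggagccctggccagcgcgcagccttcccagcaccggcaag
Kcnk13 (chr12:99964249-99964548, plus strand): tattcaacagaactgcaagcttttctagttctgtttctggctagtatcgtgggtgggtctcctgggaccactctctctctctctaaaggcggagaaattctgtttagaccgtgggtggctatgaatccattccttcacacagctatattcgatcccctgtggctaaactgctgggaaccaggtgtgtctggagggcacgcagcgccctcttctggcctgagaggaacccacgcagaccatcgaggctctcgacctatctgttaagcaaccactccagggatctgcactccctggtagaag
The Trpv2 window held GAGGAAGT, which begins 14 bases before the start, and 3.20% of all 32851 windows of this length held it. The Kcnj2 window held the shorter form, as did 13.6% of all windows, and no match was present in the Kcnk13 window. The Kcnj2 window was 66.7% GC, against 53% in Trpv2 and 52.7% in Kcnk13. A match describes letters and is not a measured binding site.

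Depth was 9.76 to 12.3 M reads per library (10.8 ± 0.826 M in RSD and 11.3 ± 0.979 M in CON, SD; exact two-sided permutation p = 0.335). A pair of libraries stood apart. Over genes, the median Spearman correlation with the remaining libraries was 0.968 for RSD 8 and 0.942 for CON 18, where the other 11 had 0.989 to 0.992. In CON 18 the summed level of 8 microglial markers was 180290 normalized reads, against 275740 to 293490 in RSD libraries and 281640 to 295380 in the other controls. Of these 8 markers Fcrls went the other way, at 12344 in CON 18 and 8134 to 11967 in the other libraries. Tmem119 and Csf1r were lowest in RSD 8, at 4880 and 56773, against 5335 and 57345 in CON 18. In CON 18 the 9 border macrophage markers analysed summed to 33195, against 4916 to 8583 in RSD and 7370.2 to 8393 in the other controls. Stab1 alone made up most of this sum in each library, at 18400 in CON 18 and 4602 to 8191 in the other libraries. The group differences of the 7 genes are also given without one or both of these libraries.

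None of the 7 genes passed the test between RSD and CON. limma, a linear model with variances shared across genes, gave adjusted p-values of 0.821 to 0.992, and 0 of 7 had an unadjusted p under 0.05. edgeR, DESeq2 and limma-voom with sample quality weights (a weight per library) on the recovered reads also called 0 of 7. Each had 0 of 7 under an unadjusted 0.05. Of all 12496 genes, 601 in edgeR, 577 in DESeq2 and 1174 in weighted limma-voom had an unadjusted p under 0.05. Among all 12496 genes tested limma called 0 (0%), and 500 (4%) had an unadjusted p under 0.05, 2.02% higher and 1.98% lower in RSD. The median log2 difference of the 7 genes was 0.00, with 4 positive and 3 negative, and the median over all genes tested was 0.01. No gene of the 7 separated the groups, where 0.064% of all genes did. The 95% intervals of the fold ran from 0.77 at the lowest to 1.28 at the highest.

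**Figure D1:**
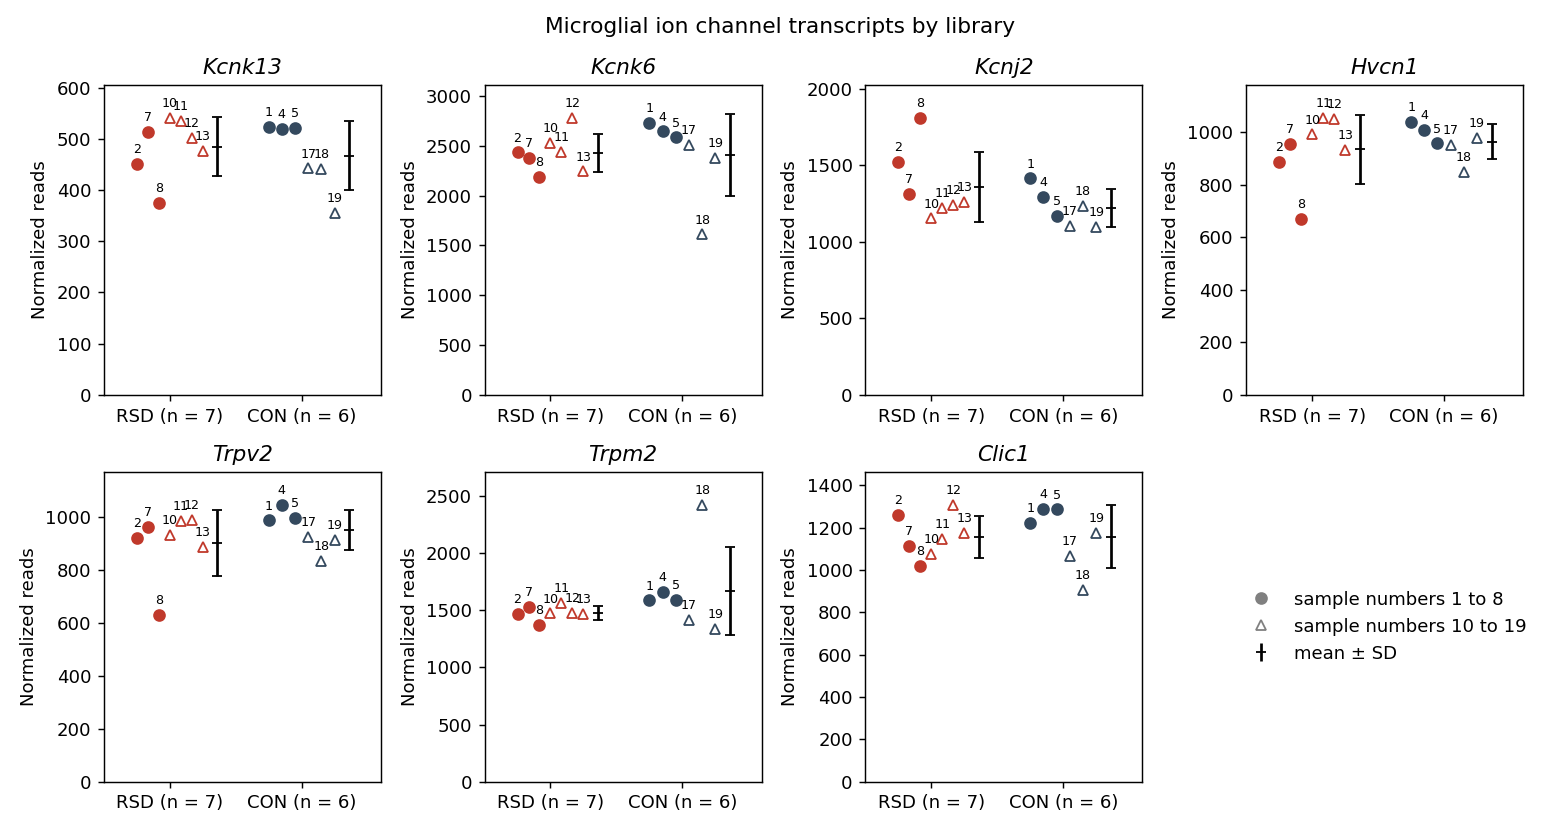
Normalized reads of each gene (vertical axes, from 0) in each of the 7 RSD and 6 CON libraries, labelled by sample number; bars are mean ± SD. The groups overlap for every gene, RSD 8 is lowest for Trpv2 at 629 and Hvcn1 at 671, and CON 18 is lowest for Kcnk6 at 1610.3 and highest for Trpm2 at 2423.

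Kcnk13 encodes THIK-1, a potassium channel of the tandem pore domain family. In rodent microglia it carries the main resting potassium current and is needed for surveillance. The gene (ENSMUSG00000045404.16) lies at chromosome 12, 99964499 to 100062682, plus strand. Its lowest, median and highest values were 376, 502 and 540.3 normalized reads in RSD, against 355, 481 and 523 in CON. It averaged 485 ± 57.4 in RSD and 467 ± 67.5 in CON (SD). Its log2 difference was 0.06 ± 0.11 (SE; limma adjusted p = 0.895). The values in both groups covered nearly the same range. The difference was 0.12 ± 0.09 without RSD 8 (limma adjusted p = 0.978) and 0.10 ± 0.09 without both RSD 8 and CON 18 (0.922).

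Kcnk6 encodes TWIK-2, a channel of the same family that is known in mouse macrophages as a route of potassium efflux upstream of NLRP3. The gene (ENSMUSG00000046410.10) lies at chromosome 7, 29221926 to 29232515, minus strand. The lowest, median and highest values were 2191, 2434 and 2777 normalized reads in RSD, against 1610.3, 2546 and 2729 in CON. CON 18 held the lowest value, and the other controls ran from 2376 to 2729, within the range of the RSD libraries. Kcnk6 averaged 2426 ± 193 in RSD and 2408 ± 409 in CON. The difference between groups was 0.03 ± 0.11 on the log2 scale (limma adjusted p = 0.951). Without CON 18 the difference was -0.08 ± 0.07 (limma adjusted p = 0.745).

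Kcnj2 encodes Kir2.1, a strong inward rectifier that keeps the membrane near the potassium equilibrium potential. The gene (ENSMUSG00000041695.2) lies at chromosome 11, 111066164 to 111076821, plus strand. Its lowest, median and highest values were 1153, 1263 and 1809 normalized reads in RSD, against 1100.2, 1204 and 1415 in CON. The highest values were in RSD 8, at 1809, and RSD 2, at 1524, both above every control. The other 5 RSD libraries lay between 1153 and 1313, inside the control range. Kcnj2 averaged 1361 ± 229 in RSD and 1221 ± 122 in CON. Its log2 difference was 0.15 ± 0.10 (limma adjusted p = 0.821). Without RSD 8 it was 0.08 ± 0.08 (limma adjusted p = 0.978).

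Hvcn1 encodes the voltage-gated proton channel, which in phagocytes lets protons out while the NADPH oxidase moves electrons. The gene (ENSMUSG00000064267.13) lies at chromosome 5, 122206804 to 122242297, plus strand. It shares 1574 of its 2998 exon bases with Tctn1 on the other strand. The use of strand in counting is not given in the sources used here, so reads of the shared stretch cannot be assigned with certainty. Tctn1 itself averaged 243 normalized reads in RSD and 258 in CON. Hvcn1 had lowest, median and highest values of 671, 955 and 1055 in RSD, against 849.7, 969 and 1042 in CON. RSD 8 was the lowest library, and the other RSD libraries, at 887 to 1055, overlapped the controls. The means were 935 ± 131 in RSD and 965 ± 65.5 in CON. RSD minus CON came to -0.06 ± 0.10 in log2 units (limma adjusted p = 0.883), 0.02 ± 0.06 without RSD 8 (0.981) and -0.09 ± 0.10 without CON 18 (0.771).

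Trpv2 encodes a calcium-permeable channel that takes part in early phagocytosis in mouse macrophages. The gene (ENSMUSG00000018507.16) lies at chromosome 11, 62574486 to 62600515, plus strand. The lowest, median and highest values were 629, 932 and 989 normalized reads in RSD, against 834, 955 and 1045 in CON. RSD 8 stood below all 12 other libraries, and the next RSD library was at 888. Trpv2 averaged 900.4 ± 125 in RSD and 949.7 ± 74.7 in CON. On the log2 scale the groups differed by -0.09 ± 0.10 (limma adjusted p = 0.838). Without RSD 8 it was -0.0035 ± 0.06 (0.994), and without CON 18 it was -0.12 ± 0.10 (0.745).

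Trpm2 encodes a calcium-permeable channel opened by ADP-ribose under oxidative stress. The gene (ENSMUSG00000009292.18) lies at chromosome 10, 77907722 to 77970563, minus strand, and shares 44 and 47 exon bases with small nucleolar RNA genes on the same strand. Its lowest, median and highest values were 1369.5, 1473 and 1565 normalized reads in RSD, against 1335, 1591 and 2423 in CON. CON 18 was the highest library, and the other controls ran from 1335 to 1662. Trpm2 averaged 1479 ± 60.6 in RSD and 1669.5 ± 389 in CON. Its log2 difference was -0.15 ± 0.11 (limma adjusted p = 0.821). Without CON 18 it was -0.03 ± 0.07 (0.864). Over the other 11 libraries, without RSD 8 as well, the coefficient of variation of Trpm2 was 6.1%, against 17.4% over all 13.

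Clic1 encodes a chloride intracellular channel protein that, in microglial cells stimulated with amyloid, has been found at the plasma membrane. The gene (ENSMUSG00000007041.9) lies at chromosome 17, 35049966 to 35058749, plus strand. The lowest, median and highest values were 1018, 1145 and 1308 normalized reads in RSD, against 906, 1199.9 and 1288 in CON. The lowest value was in CON 18, and the remaining controls, at 1068 to 1288, lay within the RSD range. Clic1 averaged 1156 ± 101 in RSD and 1158 ± 148 in CON. The log2 difference between them was 0.00 ± 0.09 (limma adjusted p = 0.992). Without CON 18 the difference was -0.07 ± 0.07 (0.785).

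The groups were also set against each other by sample number, the only order the labels give. Numbers 1 to 8 hold RSD 2, 7 and 8 and CON 1, 4 and 5, and numbers 10 to 19 hold RSD 10 to 13 and CON 17 to 19. The labels do not say that these numbers mark a batch. Kcnk13 held 451, 513 and 376 normalized reads in RSD 2, 7 and 8, against 523, 519 and 522 in CON 1, 4 and 5. It held 540.3, 534, 502 and 476 in RSD 10 to 13, against 442, 441 and 355 in CON 17 to 19. So in numbers 1 to 8 each RSD library was below each control, and in numbers 10 to 19 each RSD library was above each control. RSD 7, at 513 on 486 reads, lay within counting error of CON 4, at 519 on 560 reads.

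Within numbers 1 to 8 the log2 difference of Kcnk13 was -0.24 ± 0.13 (limma adjusted p = 0.289), and within numbers 10 to 19 it was 0.32 ± 0.10 (0.726). The difference between these effects was 0.55 ± 0.17 in a model with an interaction term (limma unadjusted p = 0.00488, adjusted p = 0.154), which did not pass. It passed without RSD 7 (0.66 ± 0.16, limma adjusted p = 0.027), where 11.7% of all genes passed, and without both CON 18 and RSD 8 (0.49 ± 0.14, limma adjusted p = 0.0428), where 3.69% did. Separation in both ranges with opposite directions was seen for 334 genes of all 12496 (2.67%), and in the direction of Kcnk13 for 143 (1.14%). The other genes with an unadjusted interaction p under 0.05 were Hvcn1 (0.40 ± 0.16), Kcnk6 (0.41 ± 0.19), Trpv2 (0.39 ± 0.18) and Clic1 (0.34 ± 0.15), with limma adjusted p-values of 0.194 to 0.227. Over all genes 0 passed this interaction in limma, 2708 (21.7%) had an unadjusted p under 0.05. Of the 7 genes, 5 were under that value.

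That count moved with the libraries left out, also with those that did not stand apart. Over all 13 libraries the limma unadjusted p was 0.0281 for Hvcn1, 0.0437 for Kcnk6, 0.0476 for Trpv2 and 0.0450 for Clic1. Without RSD 11 these were 0.0519, 0.0566, 0.0784 and 0.0565, and 2075 of 12439 genes were under 0.05. Without CON 19 they were 0.0266, 0.0248, 0.0575 and 0.0168, and 2995 of 12585 genes were. Without CON 18 and RSD 8 the interaction was 0.18 ± 0.11 for Hvcn1, 0.17 ± 0.10 for Kcnk6, 0.15 ± 0.10 for Trpv2 and 0.16 ± 0.11 for Clic1, with limma adjusted p-values of 0.347 to 0.457. Then 2 of the 7 genes had an unadjusted p under 0.05, where 20% of all genes did. These were Kcnk13 and Trpm2, which was at 0.23 ± 0.09 (limma adjusted p = 0.156).

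Within numbers 1 to 8 every gene of the 7 but Kcnj2 had a lower mean in RSD, and 5 (Kcnk13, Kcnk6, Hvcn1, Trpv2 and Trpm2) separated RSD from CON without overlap. Of all genes 30.5% separated the groups in those 6 libraries. Within numbers 10 to 19 every gene but Trpm2 had a higher mean in RSD, and Kcnk13 alone of the 7 separated the groups, as 8.59% of all genes did. Kcnj2 was positive in both ranges, at 0.25 ± 0.13 and 0.09 ± 0.07 (limma adjusted p = 0.275 and 0.726). Trpm2 was negative in both, at -0.15 ± 0.10 and -0.15 ± 0.19 (limma adjusted p = 0.351 and 0.807). The second of these values rests on CON 18, at 2423 normalized reads: RSD 10 to 13 held 1469 to 1565, against 1415 in CON 17 and 1335 in CON 19. Without CON 18 the Trpm2 interaction was 0.27 ± 0.11 (limma adjusted p = 0.161). The spread of the controls differed by gene: for Kcnk13 it was 521 ± 1.83 in CON 1, 4 and 5 and 413 ± 50.01 in CON 17 to 19, and for Kcnj2 it was 1295 ± 122 and 1147 ± 77.5 (mean ± SD, n = 3 each). The Kcnk13 values of CON 1, 4 and 5 rest on 582, 560 and 489 reads. An SD of 1.83 is smaller than counting noise alone would give, so it does not measure how controls vary. Some transcripts of neutrophil granules and myeloid cells split by the same ranges. S100a8 held 304.5, 143 and 220.3 normalized reads in RSD 2, 7 and 8, against 44.9, 134 and 111 in CON 1, 4 and 5. It held 0 to 34.3 in RSD 10 to 13 and 0 to 1.13 in CON 17 to 19. Ngp, Ltf, Camp and Chil3 were also higher in each library of numbers 1 to 8 than in each of 10 to 19. The other neutrophil markers did not split. S100a9 overlapped, at 38.6 in CON 1 and 43.6 in RSD 10, and Retnlg, Mmp9, Cxcr2 and Csf3r overlapped as well. The part of the transcripts that split in the values of the 7 genes was not tested.

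**Figure D2:**
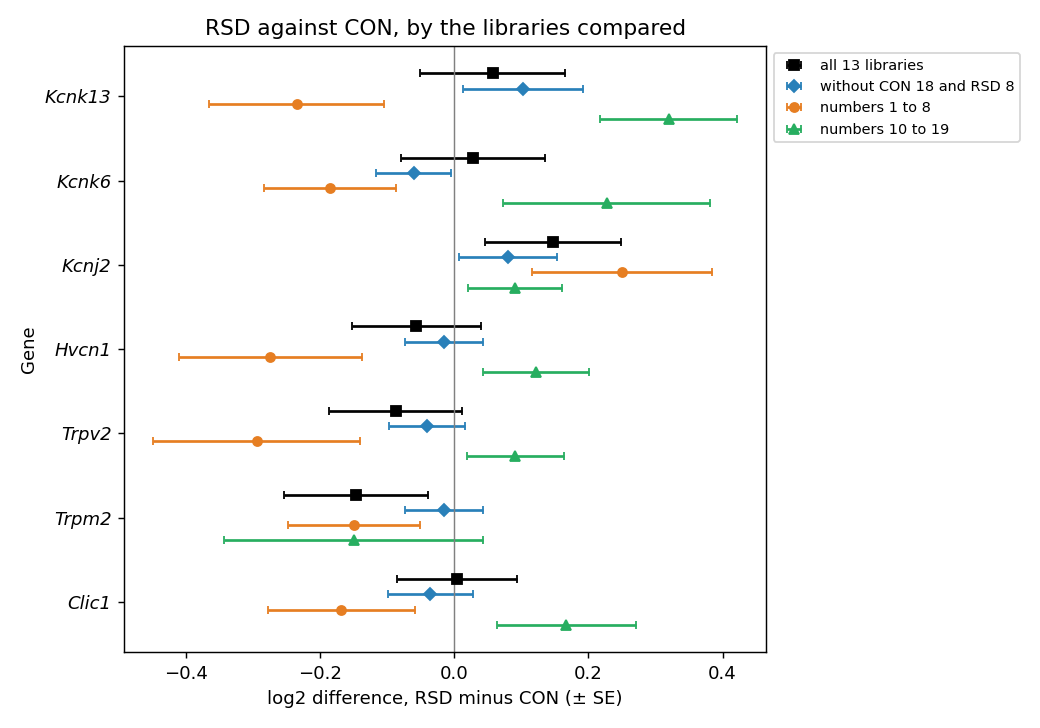
log2 difference of RSD minus CON (horizontal axis, points with SE bars) for the 7 genes (vertical axis) in all 13 libraries, without CON 18 and RSD 8, and within each range of sample numbers. Kcnk13 stands at -0.24 in numbers 1 to 8 and at 0.32 in numbers 10 to 19, and Kcnj2 is above 0 in all 4 settings.

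The libraries also differed by the base composition of transcripts. The Spearman correlation over genes of a library's deviation from the median with transcript GC was -0.741 in RSD 8 and -0.582 in RSD 2, and -0.0785 to 0.412 in the other 11 libraries. In RSD 8 the median log2 deviation was -0.36 for 5897 genes with over 50% GC and 0.53 for 1318 genes with under 42%. Kcnj2 has a transcript of 41.2% GC, and the other 6 genes have 51.3% to 55.8%. In RSD 8 Kcnj2 deviated by 0.54, while Trpv2 stood at -0.57, Hvcn1 at -0.51, Kcnk13 at -0.42, Clic1 at -0.21, Kcnk6 at -0.15 and Trpm2 at -0.11. In RSD 2 Kcnj2 deviated by 0.30 and the others by -0.16 to 0.10. The part of GC content in these values was not tested.

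**Figure D3:**
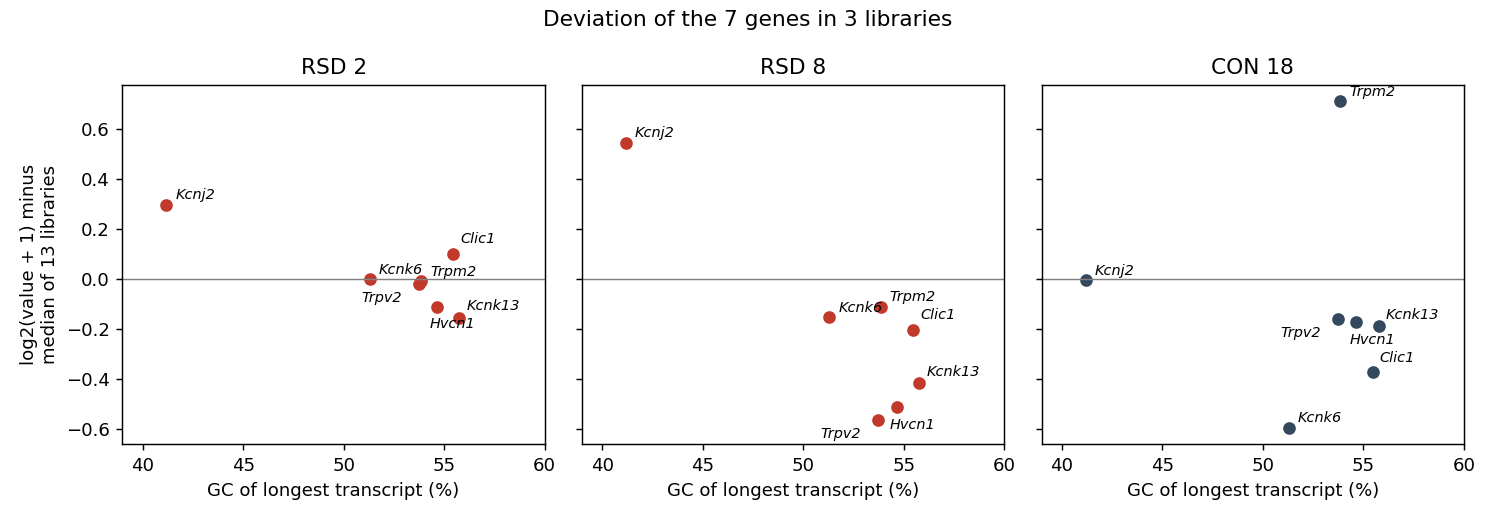
Deviation of each of the 7 genes from its median over 13 libraries, on the log2(value + 1) scale (vertical axis), against the GC content of its longest transcript in percent (horizontal axis), for RSD 2, RSD 8 and CON 18. Kcnj2, at 41.2% GC, is above the median in RSD 2 and RSD 8, and Trpm2 is the only gene above it in CON 18, at 0.71.

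CON 18 moved a different set of genes. Relative to the median of the 13 libraries, Trpm2 stood at a log2 deviation of 0.71 there, Kcnk6 at -0.60 and Clic1 at -0.37. Kcnk13, Hvcn1 and Trpv2 stood at -0.19, -0.17 and -0.16, and Kcnj2 at -0.00. Lyz2, a lysozyme of myeloid cells, held 8416 normalized reads in CON 18, against 430 to 674 in RSD and 434 to 604 in the other controls. It made up most of the summed monocyte markers there, 8896, against 829.6 to 1126 in RSD and 817 to 1022 in the other controls. Ccr2, a defining monocyte receptor, stood at 347 in CON 18, against 295 to 357 in RSD and 300 to 344 in the other controls. The part of other cell types in the CON 18 values of Trpm2 and Kcnk6 was not tested.

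Levels were also set against each other per kb of exon, a scale on which reads are divided by the length of the gene's merged exons. Clic1 was highest, at 789 ± 81.4 normalized reads per kb (SD, n = 13), above 95.6% of the tested genes that had an exon length in GENCODE M21. Kcnk6 followed at 592 ± 72.8 and was below Clic1 in each of the 13 libraries. Hvcn1 at 317 ± 34.4 and Trpv2 at 299.7 ± 33.7 were close, with Hvcn1 higher in 10 of 13 libraries and overlapping ranges. The length used for Hvcn1 includes the 1574 exon bases shared with Tctn1, where reads cannot be assigned with certainty. Its level and place in this order carry that limit. Kcnj2 at 238 ± 35.7 and Trpm2 at 209 ± 36.4 also overlapped, with Kcnj2 higher in 12 of 13. Kcnk13 was lowest, at 153 ± 19.4 per kb, above 65.0% of the tested genes with an exon length and below Trpm2 in all 13 libraries.

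**Figure D4:**
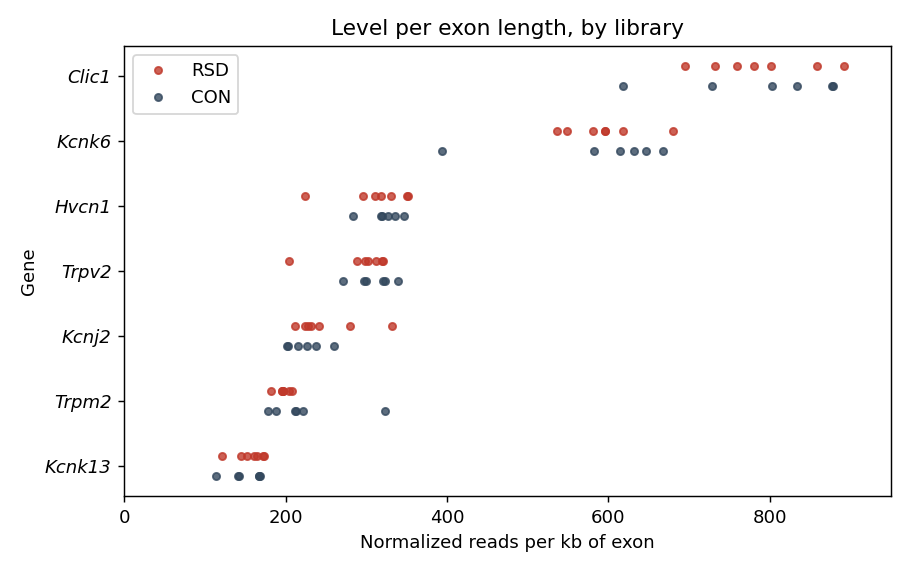
Normalized reads per kb of exon (horizontal axis, from 0) for each gene (vertical axis), 1 point per library, RSD above CON. Clic1 is highest at a mean of 789, Kcnk13 lowest at 153, and Hvcn1 and Trpv2 overlap at means of 317 and 299.7. The Hvcn1 length includes exon bases shared with Tctn1, where reads cannot be assigned with certainty.

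Variation over the 13 libraries was 10.3% (Clic1) to 17.4% (Trpm2) as a coefficient of variation. For genes of like level the median was 11.6% to 13.1%. Without CON 18 and RSD 8 it was 4.86% for Trpv2 and 5.4% for Hvcn1, and 11.3% for Kcnk13 and 10.3% for Kcnj2.

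Of 21 pairs among the 7 genes, 2 had a Pearson correlation of log2 values over the 13 libraries that passed, and 7 had a Spearman correlation that did (permutation tests with 100000 resamples, Benjamini-Hochberg adjustment over the 21 pairs). Hvcn1 and Trpv2 had r = 0.941 (permutation p = 0.00013, adjusted 0.00273) and a Spearman rho of 0.775 (permutation p = 0.00299, adjusted 0.0209). Without CON 18 and RSD 8, the libraries farthest from the Hvcn1 median, r was 0.615. Kcnk6 and Clic1 had r = 0.817 (permutation p = 0.00135, adjusted 0.0142) and rho = 0.714 (permutation p = 0.00833, adjusted 0.0300), and r = 0.546 without RSD 12 and CON 18. Both of these r values were smaller without a pair of libraries. The strongest Spearman correlation was between Kcnk6 and Trpv2 (rho = 0.868, permutation p = 0.00023, adjusted 0.00483). Their r was 0.545 (permutation p = 0.0784, adjusted 0.150) and, without RSD 12 and CON 18, 0.742. For the other 4 pairs that passed by Spearman, r was 0.566 to 0.680. It was 0.682 to 0.772 without the 2 libraries farthest from the median of 1 gene of the pair, which differed by pair. Without CON 18 and RSD 8, r was 0.374 for Kcnk13 and Hvcn1 and 0.574 for Kcnk13 and Trpv2. It was then 0.603 for Kcnk6 and Hvcn1 and 0.520 for Trpv2 and Clic1. Higher values over those 11 libraries were those of Trpm2, at 0.817 with Kcnk13 and 0.814 with Trpv2. Over all 13 libraries these were 0.210 and 0.064. With the other genes Trpm2 had 0.328 to 0.440 over the 11 libraries. No test was made of r over the 11 libraries. Kcnj2 and Hvcn1 had r = -0.682, rho = -0.280 and, without RSD 2 and RSD 8, r = 0.204 (permutation p = 0.0247 for r and 0.355 for rho, adjusted 0.108 and 0.497), so the negative relation rests on those libraries.

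Likeness to other genes was measured as the Pearson correlation of log2(value + 1) over the 13 libraries, among 8858 genes with a mean of at least 100 normalized reads. Kcnk13 was most like Slc35c1, a transporter of GDP-fucose, at 0.925, and Tab1, an adaptor of the kinase TAK1, at 0.922. Over 11 libraries, without CON 18 and RSD 8, the closest were again Tab1 at 0.924 and Slc35c1 at 0.921, and no other of the 7 genes kept its pair. Hvcn1 was most like Hdac5, a histone deacetylase, at 0.980 and Tmbim6 at 0.972, and over the 11 libraries most like Armc5 at 0.931 and Slc52a2, a riboflavin transporter, at 0.920. Trpv2 was most like Grcc10 at 0.962 and Cd37, a tetraspanin of leukocytes, at 0.961, and over the 11 libraries Atp5sl at 0.937 and Lst1 at 0.924. In RSD 8, Hdac5, Tmbim6, Grcc10 and Cd37 stood at 0.551, 0.561, 0.427 and 0.520 of their medians. Over the 11 libraries Hdac5 and Tmbim6 had 0.881 and 0.867 with Hvcn1, and Grcc10 and Cd37 had 0.813 and 0.741 with Trpv2. Kcnj2 was most like Zranb2 and Ppt1, a lysosomal thioesterase, both at 0.943, and over the 11 libraries BC030336 at 0.911 and Lactb2 at 0.9004.

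The closest genes of Kcnk6, Trpm2 and Clic1 also changed with the libraries used. Kcnk6 was most like Slc2a5, the fructose transporter of microglia, at 0.948 and Rtn4rl1 at 0.947, which stood at 0.285 and 0.552 of their medians in CON 18. Over the 11 libraries these had 0.714 and 0.664, and 6330416G13Rik at 0.889 and Dnlz at 0.836 were closest. Trpm2 was most like Acvrl1, a receptor of the TGF-beta family, at 0.967 and Parvb at 0.958, each at about 2-fold its median in CON 18 (2.01 and 2.06). Over the 11 libraries Blvra, biliverdin reductase, at 0.946 and Nelfcd at 0.945 were closest. Clic1 was most like Cd276 at 0.925 and Supt4a at 0.914, and over the 11 libraries Bin3 at 0.924 and Ufd1l at 0.911.

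Other channels and their partners were described by 9 lists from textbook knowledge with 142 genes, of which 106 were tested. None of the 106 passed in limma, and 5 had an unadjusted p under 0.05, where 4% of all genes did. For the 29 named genes of these lists, the log2 difference over all 13 libraries is given with its SE, followed by the value without CON 18 and RSD 8. Without these libraries 21 of the 29 were over 1.5 times smaller and 3 (Cybb, P2ry12 and Nlrp3) had the other sign. Most of the 29 were chosen for a small p over all 13 libraries, a choice that by itself favours smaller values afterwards. The share over all genes was not computed, so the count does not measure the effect of these libraries. The limma adjusted p-values of the 29 genes over all libraries were 0.821 to 0.846. The counts of positive genes and the medians of each list below are over all 13 libraries. They were not computed without CON 18 and RSD 8. Among all genes tested 48.6% were below zero, with a median log2 difference of 0.01.

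Among other potassium channels and their subunits 4 of 12 tested were positive, with a median log2 difference of -0.14. Kctd12, which is no channel but an auxiliary subunit of GABA-B receptors, had the smallest p, at 42798 ± 5194 in RSD libraries and 36801 ± 4292 in CON libraries. Its log2 difference was 0.22 ± 0.10, and 0.096 without the libraries that stood apart. The next were Kcnab2 (-0.84 ± 0.53, then -0.066) and Kcnj9 (-0.27 ± 0.20, then -0.074). Kcnab2 was at 129.6 normalized reads in CON 18, where the remaining controls had 13.5 to 17.4. Of other TRP and mechanosensitive channels 2 of 10 were positive, with a median of -0.10. Mcoln1, a lysosomal calcium channel (-0.21 ± 0.12, then -0.059), Trpv4 (-0.49 ± 0.32, then -0.14) and Trpm3 (-1.21 ± 0.77, then -1.48) had the smallest p. Trpm3 was near the floor, with 1 to 55 reads per library. In numbers 1 to 8 it averaged 17.7 ± 15.2 normalized reads in RSD and 38.1 ± 17.9 in CON (SD). In numbers 10 to 19 it averaged 8.54 ± 13.1 in RSD and 8.31 ± 4.29 in CON.

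Of chloride and volume-regulated channels 7 of 16 were positive, with a median of -0.02. Lrrc8c (-0.76 ± 0.38, then -0.35) and Lrrc8b (-0.38 ± 0.22, then -0.12) encode subunits of the volume-regulated anion channel. Lrrc8c was at 126 normalized reads in CON 18, against 10.5 to 27.8 in RSD and 18.0 to 32.0 in the other controls. Clcn3, an endosomal chloride transporter, was at 0.14 ± 0.08, then 0.047. Of calcium entry and release channels 7 of 16 were positive, with a median of -0.04. Tpcn1 (-0.21 ± 0.11, then -0.14) and Tpcn2 (-0.26 ± 0.15, then -0.050), channels of endosomes and lysosomes, and Orai3 (-0.19 ± 0.13, then -0.23), a store-operated channel, led that list.

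Of ATP-gated and large-pore channels 2 of 5 were positive, with a median of -0.04. P2rx4 (-0.23 ± 0.13, then -0.054), P2rx1 (0.36 ± 0.23, then 0.30) and Panx1 (0.33 ± 0.23, then 0.093) had the smallest p there. In transporters of protons, sodium and chloride 8 of 20 were positive, with a median of -0.01. Slc12a2, a sodium, potassium and chloride cotransporter, averaged 4068 ± 253 normalized reads in RSD and 3183 ± 891 in CON (0.42 ± 0.18, then 0.19), with 1472 in CON 18. Slc8a1 (0.15 ± 0.08, then 0.041) and Slc16a1 (0.38 ± 0.23, then 0.10) followed.

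Of the NADPH oxidase genes that work beside Hvcn1, 3 of 8 were positive, with a median of -0.05. Ncf4 was at -0.18 ± 0.10, then -0.066, and Rap1a at 0.16 ± 0.14, then 0.017. Cybb, the catalytic subunit, held 42.5 to 90.5 normalized reads in RSD, against 43.3 to 70.5 in CON 1, 4, 5, 17 and 19 and 7834 in CON 18 (log2 -1.06 ± 1.06, then 0.032). Of the NLRP3 inflammasome genes 6 of 10 were positive, with a median of 0.06. Il18 was at 0.27 ± 0.13, then 0.13, and Il1a at 0.20 ± 0.11, then 0.14. Nek7, a kinase that binds NLRP3 after potassium efflux, was at 0.19 ± 0.10, then 0.058. Nlrp3 averaged 2051 ± 145 in RSD and 2273 ± 682 in CON (log2 -0.11 ± 0.13, then 0.023).

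Of the purine receptors and G proteins 7 of 9 were positive, with a median of 0.13. P2ry6, a UDP receptor, averaged 1636 ± 272 in RSD and 1990.3 ± 215 in CON (-0.30 ± 0.11, then -0.15). Gnai3 was at 0.18 ± 0.09, then 0.095, and Entpd1 at 0.16 ± 0.11, then 0.0084. P2ry12, a receptor that couples to THIK-1 current, was at 0.24 ± 0.18 over all libraries and turned to -0.021 without CON 18 and RSD 8. It held 18926 normalized reads in CON 18, against 39675 to 45972 in the other controls.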

How the data were processed

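Per the labels' protocols, cells were separated on Percoll and sorted by CD11b and CD45, the PicoPure kit gave RNA, and libraries came from the Ovation SoLo system with AnyDeplete. Alignment used STAR and mm10, and normalization used DESeq2, per the submitters' processing notes; versions, read counter and strand setting were not given in the sources used here. In the deposited table the authors provide a normalized signal per gene: 100% of values in each library were whole multiples of 1 step within 0.01 reads, so reads were recovered. The 7 genes had 353 to 3037 reads per library.

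Genes were kept by filterByExpr at a minimum count of 10 and a minimum total of 15 recovered reads, leaving 12496 genes. RSD and CON were compared with limma (3.58.1) on log2(value + 1), with trend and robust variances, two-sided, Benjamini-Hochberg adjustment over all genes and a threshold of 0.05. Differences are on that scale. edgeR (4.0.16), DESeq2 (1.42.0) and limma-voom with sample quality weights, on recovered reads in R 4.3.3, were alternatives. So were other filters, pseudocounts and libraries left out. The limma step was tested on simulated counts drawn independently for each library, without outlying libraries or a split by sample number. That test does not show how small a difference could be found in these data. Lengths, GC and coordinates are from GENCODE M21 (GRCm38). No pair of libraries agreed within sampling noise. Nothing in the labels ties each sample to its own mouse, and p-values therefore reflect only how these samples vary. The 7 genes, the gene lists and the tests were chosen with earlier results of these data known. Named genes were the 7, P2ry12, Cybb and Nlrp3, up to 3 of smallest p in each list, and the 2 closest by correlation to each of the 7.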

Additional observations from a re-analysis of the deposited data

Results flagged for a closer look

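Kcnk13 moved in opposite directions in the sample number ranges: the RSD effect in numbers 10 to 19 exceeded that in numbers 1 to 8 by 0.55 on the log2 scale (SE 0.17, limma adjusted p = 0.154), with every library on its group's side in both ranges.

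A library lay far from the rest of its group for several genes, by Dixon's test, which flags about 1 in 20 groups by chance. Of the 7 channels these were Trpv2 at 629 normalized reads in RSD 8 (the other RSD libraries 888 to 989), Kcnk6 at 1610.3 in CON 18 (2376 to 2729) and Trpm2 at 2423 in CON 18 (1335 to 1662).

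Of the other named genes, in normalized reads, RSD 8 stood apart for Tpcn1 (1445), Slc8a1 (8126), Il18 (492.7) and Nek7 (3208). CON 18 was high for Kcnab2 (129.6), Mcoln1 (720.1), Trpv4 (198), Lrrc8c (126), Lrrc8b (105), Tpcn2 (691), P2rx4 (1136), Cybb (7834) and Nlrp3 (3607). It was low for Kctd12 (28312), Orai3 (212), Slc12a2 (1472), Slc8a1 (4861), Entpd1 (4883) and P2ry12 (18926).

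Summed markers in CON 18 stood apart for microglia (180290), border-associated macrophages (33195), monocytes (8896), astrocytes (500.3) and endothelium with mural cells (82.3). Of the microglial markers, Fcrls went the other way and was highest of all libraries in CON 18 (12344). Single genes carried several of these sums. Lyz2 gave 8416 of the monocyte sum. Stab1 (18400) and Mrc1 (12409) gave most of the border-associated macrophage sum. Slc1a3, at 361 where the other libraries had 1128 to 1473, and Pecam1, at 43.9 where they had 309 to 461, carried the astrocyte and endothelial sums, while Slc1a2 (87.9) and Flt1 (27.05) were highest of all libraries in CON 18. The median Spearman correlation with other libraries stood apart in RSD 8 (0.968) and CON 18 (0.942).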

How the results depend on the processing

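No paired analysis was possible because RSD and CON share no replicate number. None of the 7 channels passed at 0.05 in any alternative of the RSD and CON comparison, and Kcnj2 and Trpm2 kept their sign in each. Of all genes, DESeq2 called 2 and all RSD against CON 1, 4 and 5 called 5, where limma called 0. Genes passing the interaction numbered 0 to 1457 with 1 library left out (1457 without RSD 7, 3 without CON 1) and 463 without CON 18 and RSD 8.

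The sign of these log2 differences turned, and the cause was not tested. Clic1 was -0.0087 in edgeR, -0.0052 in DESeq2 and -0.0032 with TMM factors. With limma-voom and sample quality weights, Kcnk6 was -0.068, Clic1 -0.085, P2ry12 -0.0091 and Nlrp3 0.0076. Without CON 18 and RSD 8, Kcnk6 was -0.061, Clic1 -0.036, Cybb 0.032, P2ry12 -0.021 and Nlrp3 0.023, and the interaction was 0.014 for Kcnj2 and 0.23 for Trpm2. Against CON 1, 4 and 5, Kcnk13 was -0.12, Kcnk6 -0.13, Clic1 -0.14, Cybb 0.058 and Nlrp3 0.00078. Against CON 17, 18 and 19, Hvcn1 was 0.00056 and Trpv2 0.0032. Within numbers 1 to 8, Kcnk13 was -0.24, Kcnk6 -0.19, Clic1 -0.17, P2rx1 -0.20, Panx1 -0.021 and Cybb 0.44. Within numbers 10 to 19, Hvcn1 was 0.12, Trpv2 0.091, Tpcn1 0.010, Orai3 0.10 and Rap1a -0.14. With 1 library left out, Clic1 ran from -0.065 to 0.036, Hvcn1 ran from -0.093 to 0.021, Kcnk6 ran from -0.084 to 0.068, Cybb ran from -1.37 to 0.12, Nlrp3 ran from -0.17 to 0.035, Kcnk13 ran from -0.019 to 0.12, the interaction of Trpm2 ran from -0.16 to 0.27. Depth gave 353 reads or more behind each value of the 7 channels.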

Other observations

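Further channel genes stood apart in the library CON 18 and were chosen after their values were seen. Kcna3, the voltage-gated potassium channel Kv1.3 known from activated microglia, held 2132 normalized reads there, against 113 to 427 in RSD and 121 to 313 in the other controls. Kcnn4, the calcium-activated channel KCa3.1, held 215 there, against 14.9 to 25.3 in RSD and 11.54 to 23.4 in the other controls. Clic4, a relative of Clic1, held 699.8, against 91.8 to 146 in RSD and 79.0 to 135 in the other controls.

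In the other direction, Kcnk12, the closest relative of Kcnk13, held 39.4 normalized reads in CON 18, against 84.1 to 202 in RSD and 134.5 to 184 in the other controls. Kcnma1, the large-conductance potassium channel, held 174 there, against 637 to 816 in RSD and 682 to 743 in the other controls. These are values of a single library, and no test was made of them.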
